A study of Homo sapiens with 3 samples.

Results

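The 10 apolipoprotein genes APOA1, APOA2, APOA4, APOB, APOC1, APOC2, APOC3, APOE, APOH and APOM were followed in HepG2, a human hepatocellular carcinoma line, on 3 Agilent 1-color arrays. They were chosen by gene name from the 27274 gene names on the array, and all of their probes were used, which came to 12 probes on 30 spots of each array. The groups were control cells (0 μM etoposide, called untreated in the labels and DMSO in the study's own tables of ratios), cells given 10 μM etoposide and cells given 100 μM etoposide, each for 30 h. Etoposide is a topoisomerase II poison that causes DNA double-strand breaks, and the study compared the doses because it took the lower one as senescent and the higher one as apoptotic treatment. All groups were the same line grown in RPMI medium with fetal bovine serum, with no genetic change between them named in the labels. There was 1 array per condition, so no difference below has a replicate check, no test between conditions could be made and no p-value is given. In bulk RNA, fewer cells of a kind and less RNA per cell cannot be told apart.

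Apolipoproteins are the protein parts of lipoprotein particles, which carry cholesterol and triglycerides through the blood. The liver makes most of them: a large one forms the frame of very low and low density lipoproteins, small exchangeable ones sit on the surface of high density and triglyceride-rich particles, and several of these steer the enzymes and receptors that remove lipid. HepG2 cells secrete lipoproteins and are widely used to study these genes.

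The array saw each gene through probes of 60 bases, and the sequences of APOA1, APOA2, APOA4 and APOC3 are shown for these reasons. APOA1, APOA4 and APOC3 are neighbours on chromosome 11, with log2 ratios from 0.19 to 0.78 at 100 μM over control after scaling. APOA1 was read by 2 separate probes, and the APOA2 probe spans a gap in the genome. Each sequence is in the direction of the transcript, as the deposited array files give it, with probe positions on hg18 as in those files.
APOA1, brighter probe: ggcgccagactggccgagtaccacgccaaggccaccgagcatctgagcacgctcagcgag
APOA1, dimmer probe: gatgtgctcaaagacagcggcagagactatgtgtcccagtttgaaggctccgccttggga
APOA2: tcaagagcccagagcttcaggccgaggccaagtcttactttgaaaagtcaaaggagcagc
APOA4: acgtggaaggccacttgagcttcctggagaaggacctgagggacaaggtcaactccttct
APOC3: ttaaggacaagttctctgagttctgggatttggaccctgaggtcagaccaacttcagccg
The brighter APOA1 probe (NM_000039) lies at chr11:116211851-116211910 and the dimmer one at chr11:116212938-116212997, both on the minus strand. The APOC3 probe (NM_000040) lies at chr11:116208740-116208799 on the plus strand and the APOA4 probe (NM_000482) at chr11:116196921-116196980 on the minus strand, so the probes of this cluster fall within 16.1 kb. The APOA2 probe (NM_001643) covers chr1:159458908-159459362 on the minus strand, a stretch of 455 bases for a probe of 60, so it bridges a gap between parts of the transcript. The cluster on chromosome 19, within 40.1 kb, was read at chr19:50104430-50104489 for APOE (NM_000041), chr19:50114276-50114335 for APOC1 (NM_001645) and chr19:50144480-50144539 for APOC2 (NM_000483), all on the plus strand. APOB (NM_000384) was read at chr2:21078004-21078063 and APOH (NM_000042) at chr17:61638667-61638726, both on the minus strand, and APOM (NM_019101) at chr6:31733854-31733913 and by a dimmer probe across chr6:31732997-31733137 on the plus strand.

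All 10 genes were well above background on all 3 arrays by the software's call, and no spot was saturated. Values below are the deposited signal, in arbitrary units, and ratios of it after each array was set relative to the 75th percentile of its probes, a signal of 514 in control cells, 536 at 10 μM and 432 at 100 μM. This scaling added 0.25 on the log2 scale to every ratio of 100 μM over control and took 0.06 from every ratio of 10 μM over control. After scaling, the median over all measured genes was −0.03 at 10 μM and 0.09 at 100 μM relative to control. Ratios carry a spot SD, the SD between repeated spots divided by the square root of the number of spots averaged. This spot SD was 0.06 for most members and covers 1 array rather than cultures or RNA preparations. The software's own error, 10.0 to 10.2% of each spot's signal, gave a wider error of 0.204 to 0.207 on the log2 ratio. Levels of different probes are not compared, since each probe binds with its own strength.

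At 100 μM the apolipoprotein genes stood above control by a small amount, with a median ratio of 1.42-fold after scaling and all 10 above control (8 without scaling, with APOA4 and APOH below), while at 10 μM their median was 1.01-fold. No member passed 2-fold in any comparison. At 100 μM the log2 ratios ran from 0.05 for APOH to 0.78 for APOC3 with a median of 0.50, and 9 of the 10 lay above the median of all genes, by 0.42 for the members' median. At 10 μM they ran from −0.21 for APOH to 0.25 for APOB, with 5 above and 5 below control (6 and 4 without scaling, where APOC3 turned). Between the doses, 100 μM over 10 μM, they ran from 0.26 for APOH to 0.83 for APOC3 with a median of 0.39.

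**Figure D1:**
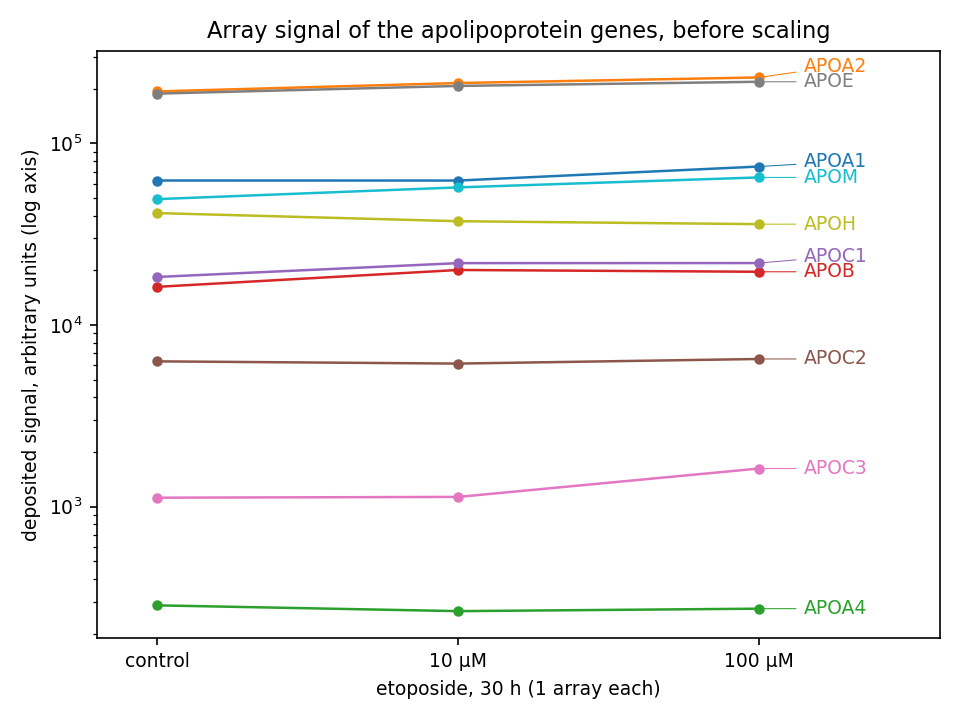
Deposited signal of the brightest probe of each apolipoprotein gene, in arbitrary units on a log axis before scaling, in control cells and after 30 h of 10 or 100 μM etoposide, with 1 array per point. The lines are nearly flat: APOC3 is the steepest, from 1120 to 1622, and APOH is the gene that is lower at both doses by this unscaled signal, from 41329 to 35918, together with APOA4 from 286 to 274.

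APOB encodes apolipoprotein B, the structural protein of very low and low density lipoproteins, and its probe was spotted 10 times on each array. Its signal was 16226 in control cells, 20094 at 10 μM and 19641 at 100 μM. The spots lay between 15456 and 16967 in control cells, between 19058 and 20963 at 10 μM and between 19019 and 20368 at 100 μM. Control cells were thus lowest with no overlap of spots, whereas the spots of both doses overlapped. After scaling, APOB was 1.19-fold of control at 10 μM (log2 ratio 0.25, spot SD 0.02) and 1.44-fold at 100 μM (0.53, spot SD 0.02). These spot SDs are small because they are those of a mean of 10 spots. The SD between its single spots was 0.045 in control cells, 0.040 at 10 μM and 0.032 at 100 μM. APOB had the highest ratio of the members at 10 μM. Its ratio of 100 μM over 10 μM, 1.21-fold after scaling, was 0.977-fold without scaling, so its direction between the doses depends on the scaling.

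APOA1 encodes the main protein of high density lipoprotein and the activator of the cholesterol-esterifying enzyme LCAT. The brighter probe gave a signal of 62465 in control cells, 62429 at 10 μM and 74576 at 100 μM. The dimmer probe, spotted 10 times, gave 35126, 36983 and 42204 in the same order. On both, 100 μM was the highest, and the 10 spots of 100 μM, between 40797 and 44033, lay above all spots of the other arrays, while those of control cells (34448 to 36082) and of 10 μM (35992 to 38428) overlapped. The brighter probe was 0.958-fold of control at 10 μM and 1.42-fold at 100 μM. The dimmer probe was 1.01-fold and 1.43-fold, so at 100 μM the probes differed by 0.01 on the log2 scale, less than the spot SD of 0.06. At 10 μM the brighter probe turned slightly above control (log2 ratio 0.03) with quantile normalization.

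APOA2 encodes the second most abundant protein of high density lipoprotein. Its signal was 193217 in control cells, 214947 at 10 μM and 230723 at 100 μM. It was ordered by dose, and was 1.07-fold of control at 10 μM and 1.42-fold at 100 μM after scaling, or 1.11-fold and 1.19-fold without it. APOA4, made mainly by the intestine and carried on chylomicrons and high density lipoprotein, was the dimmest member, with a signal of 286 in control cells, 266 at 10 μM and 274 at 100 μM. Its 3 signals were close to each other, and its ratio at 100 μM was 1.14-fold after scaling (spot SD of the log2 ratio 0.09) but 0.959-fold without scaling, and also below control with median scaling.

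APOM encodes a lipocalin of high density lipoprotein that carries sphingosine-1-phosphate. Its brighter probe gave a signal of 49328 in control cells, 57253 at 10 μM and 64956 at 100 μM. Its dimmer probe gave 22837, 26270 and 31602. Both probes ordered the arrays by dose, at 1.11-fold and 1.10-fold of control at 10 μM and 1.57-fold and 1.65-fold at 100 μM, and at 100 μM they differed by 0.07 on the log2 scale with a spot SD of 0.08. Over the 4 high density lipoprotein genes APOA1, APOA2, APOA4 and APOM, the log2 ratio of 100 μM over control ran from 0.19 to 0.65 with a median of 0.51.

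APOC3 encodes an inhibitor of lipoprotein lipase and of remnant uptake, and it had the highest ratio of the members at 100 μM. Its signal was 1120 in control cells, 1131 at 10 μM and 1622 at 100 μM. The array of 100 μM stood alone above the other arrays, with ratios of 1.72-fold over control (log2 ratio 0.78, spot SD 0.06) and 1.78-fold over 10 μM. Without scaling these were 1.45-fold and 1.43-fold, and over the 6 scalings tried and the one used here the log2 ratio over control ran from 0.49 to 0.84. The ratio of 10 μM over control, 0.968-fold, turned to 1.01-fold without scaling and lay above control with spike-in scaling too.

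APOC2 encodes the activator of lipoprotein lipase. Its signal was 6309 in control cells, 6133 at 10 μM and 6502 at 100 μM. The 3 values lay within a narrow range, and the ratios were 0.931-fold at 10 μM and 1.23-fold at 100 μM after scaling, of which 1.03-fold remained at 100 μM without it. APOC1, which encodes an inhibitor of the cholesteryl ester transfer protein, had a signal of 18390 in control cells, 21915 at 10 μM and 21932 at 100 μM. Here control cells were lowest and the doses were nearly equal before scaling, and the scaled ratios over control were 1.14-fold and 1.42-fold.

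APOE encodes the ligand through which remnant particles bind their receptors on liver cells. Its signal was 187966 in control cells, 207205 at 10 μM and 218396 at 100 μM. It followed the order of dose as APOA2 did, with ratios of 1.06-fold and 1.38-fold after scaling. Over APOC1, APOC2, APOC3 and APOE the log2 ratio of 100 μM over control ran from 0.29 to 0.78 with a median of 0.49.

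APOH encodes beta-2-glycoprotein I, a phospholipid-binding plasma protein that is found partly on lipoproteins. Its signal was 41329 in control cells, 37282 at 10 μM and 35918 at 100 μM. Control cells were the highest and 100 μM the lowest, the reverse of the order of APOA2, APOE and APOM. After scaling it was 0.864-fold of control at 10 μM and 1.03-fold at 100 μM, and the latter was 0.869-fold without scaling. It was also below control at 100 μM with median scaling and with scaling by spike-in controls.

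**Figure D2:**
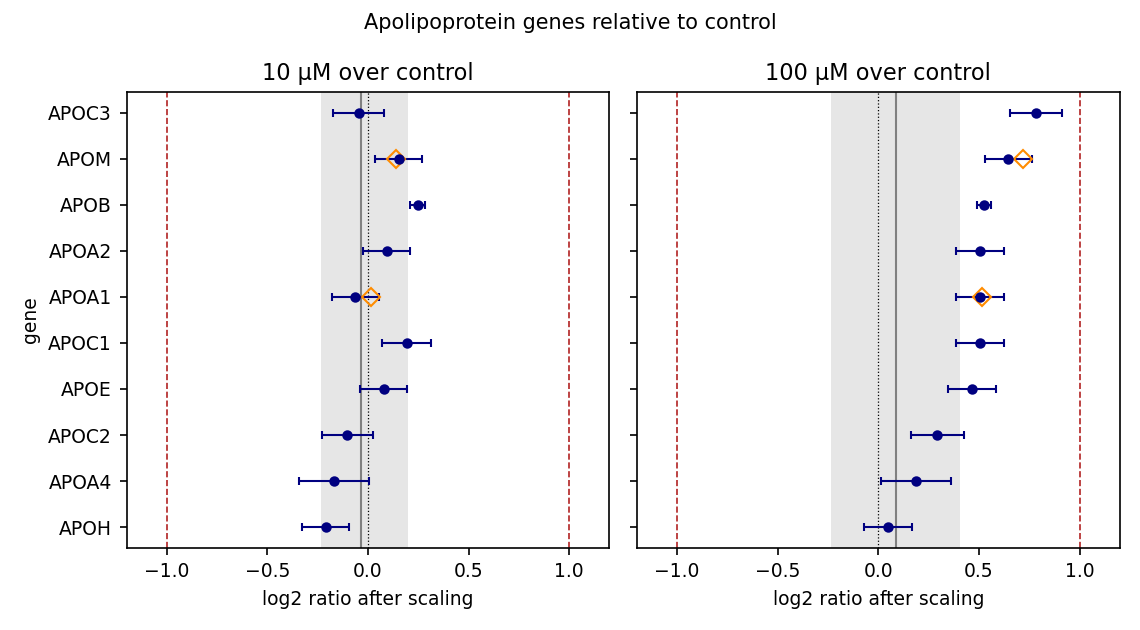
Log2 ratio of each apolipoprotein gene over control after scaling, at 10 μM (left) and 100 μM (right) etoposide. Filled points are the brightest probes with 2 spot SD as bars, open diamonds the dimmer probes of APOA1 and APOM, the gray line and band the median and middle quartiles of all genes, the dotted line no change and the dashed lines 2-fold. At 100 μM, 7 genes lie to the right of the gray band, between 0.47 and 0.78, while APOC2, APOA4 and APOH lie within it; APOA4 and APOH would fall left of the dotted line without scaling or with median scaling, and APOH also with spike-in scaling. At 10 μM, APOC3 would fall right of it without scaling or with spike-in scaling, and APOA1 with quantile normalization.

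The counts of members were read against all genes that could be compared. At 10 μM, 0 of 10 members were more than 2-fold higher, against 3.37% of all genes, and 0 were more than 2-fold lower, against 1.6%. At 100 μM, 0 of 10 were more than 2-fold higher against 6.76%, and 0 were lower by that much against 3.66%. Between the doses, 100 μM over 10 μM, the corresponding counts were 0 against 3.95% and 0 against 3.63%. A count of 0 in 10 members is near each of these shares. Above 1.5-fold, 2 members (APOC3 and APOM) lay higher at 100 μM than in control cells, against 18.4% of all genes, and 1 member (APOC3) lay higher than at 10 μM, against 14.3%.

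By direction alone, 5 of 10 members lay above control at 10 μM against 45.6% of all genes, a share near the background. All 10 lay above control at 100 μM, against 57.4%, and all 10 lay above 10 μM, against 59.6%, although without scaling APOA4 and APOH lay below control and APOB and APOH below 10 μM. After scaling, the spot noise was exceeded by more than 2 SD in 4 members at 10 μM, in 9 at 100 μM and in 10 between doses, and the software's error by more than 2 in 0, 7 and 4. These counts depend on the scaling. Without it, only APOC3 passed 2 software errors, with log2 ratios of 0.53 over control and 0.52 between doses. APOA4 and APOC2 then lay within 2 spot SD at 100 μM, and APOA2, APOA4, APOC1, APOC2, APOE and APOH between doses. At 10 μM, APOA2 and APOE then passed 2 spot SD too. Of all measured genes, 19.2% had a higher ratio of 100 μM over control than the members' median, and at 10 μM 43.8% did. Among 1019 other genes with a signal of 10000 or more, the median log2 ratio of 100 μM over control was −0.06 and 44.5% were higher. APOC2, APOC3 and APOA4 were dimmer than this. Among 4317 other genes from 1000 to below 10000, where APOC2 and APOC3 lay, the median was −0.01 and 48.7% were higher. Among 6806 from 100 to below 1000, where APOA4 lay, it was 0.07 and 55.8% were higher.

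The direction of the smallest ratios rests on how the arrays are set against each other. Without scaling, 8 of 10 members lay above control at 100 μM (APOA4 and APOH below), and 36.5% of all genes did. Median scaling gave the same 8 members with 33.7% of all genes, and spike-in scaling gave 9 (APOH below) with 42.7%. Between the doses, 8 members lay above 10 μM without scaling (APOB and APOH below) with 28.3% of all genes, and 9 with median scaling (APOH below) with 32.3%. Of the genes that passed 2-fold at 100 μM over control, 64.9% were higher with the scaling used here, 49.8% with quantile normalization, 45.0% with spike-in scaling, 37.2% without scaling and 33.2% with median scaling. Between the doses these shares were 52.1%, 34.6%, 28.9%, 22.3% and 25.4%. A scaling by 1 factor per array moves members and all other genes alike, so the 0.42 between the members' median and that of all genes stays, and it was the members' absolute ratio that moved.

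**Figure D3:**
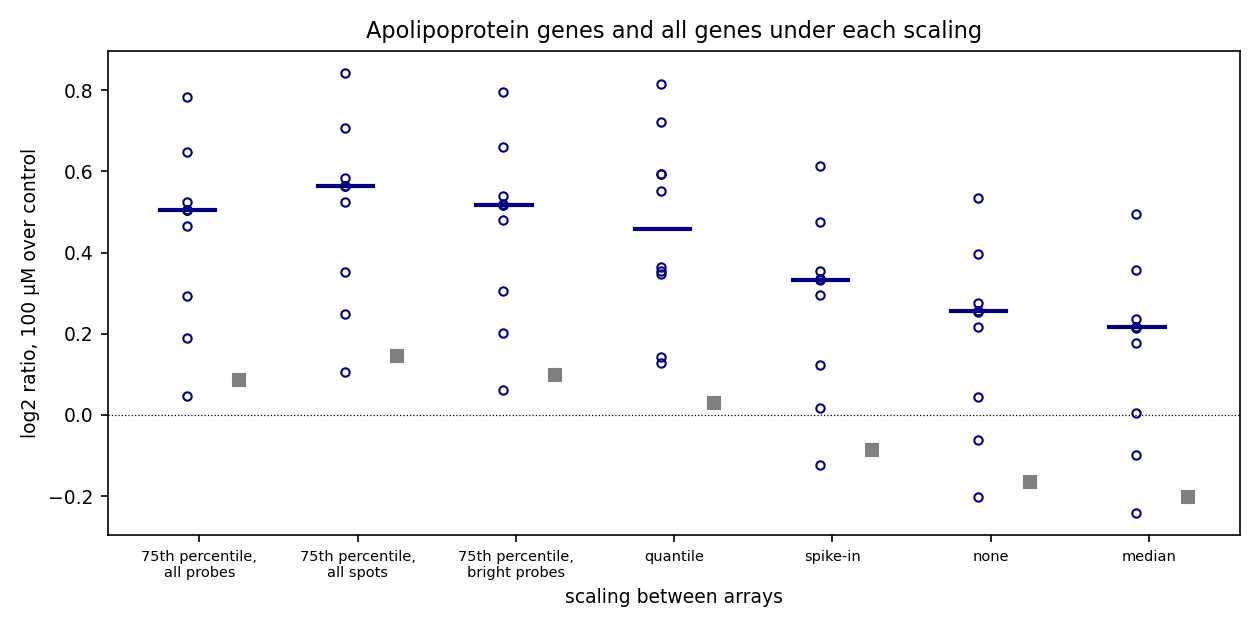
Log2 ratio of 100 μM etoposide over control for the 10 apolipoprotein genes (open circles), their median (bars) and the median of all measured genes (gray squares) under the scaling used here, leftmost, and 6 others. The members' median runs from 0.22 with median scaling to 0.56 with the percentile over all spots and stays above that of all genes in each, while APOH lies below 0 with no, median and spike-in scaling and APOA4 with no and median scaling.

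Differences between members within a comparison do not depend on any scaling by 1 factor per array. At 100 μM over control, ranked from APOC3 through APOM, APOB, APOA2, APOA1, APOC1, APOE, APOC2 and APOA4 to APOH, none of the 9 neighbouring pairs differed by more than 2 spot SD. Of all 45 pairs, 27 differed by more than 2 spot SD and 3 by more than 2 software errors. These 3 were APOC3 over APOH (0.74 on the log2 scale, spot SD 0.09), APOM over APOH (0.60, spot SD 0.08) and APOC3 over APOA4 (0.59, spot SD 0.11). At 10 μM 23 of 45 pairs passed 2 spot SD and 0 passed 2 software errors. The middle of the ranking was tight, with APOB, APOA2, APOA1, APOC1 and APOE between 0.47 and 0.53.

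In the chromosome 11 cluster, APOC3, APOA1 and APOA4 had log2 ratios of 100 μM over control of 0.78, 0.51 and 0.19, the first and the ninth of the ranking within 16.1 kb. In the chromosome 19 cluster, APOC1, APOE and APOC2 had 0.50, 0.47 and 0.29. At 10 μM the chromosome 11 genes lay between −0.17 and −0.05 and the chromosome 19 genes between −0.10 and 0.19.

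Of the 12 other genes near these clusters, 2 were more than 2-fold higher at 100 μM over control, against 6.76% of all genes, and 0 were lower. The median log2 ratio of the 11 measured on both arrays was 0.23, against 0.09 for all genes. CLPTM1, next to APOC2, had a signal of 284, 345 and 485 in control cells, 10 μM and 100 μM, and rose 2.03-fold at 100 μM, a call made in 4 of 8 settings of scaling and background. CBLC, below the background limit in control cells, was at least 2.07-fold higher, in 3 of 8 settings. The RELB transcription factor gene rose 2.06-fold at 10 μM and was 1.42-fold of control at 100 μM, and BCAM had a log2 ratio of 0.59 at 100 μM. TOMM40, next to APOE, was 0.766-fold of control at 100 μM, and BUD13 and ZNF259, beside the chromosome 11 cluster, were 0.607-fold (past 2-fold in 1 of 8) and 0.866-fold.

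The start regions of APOH and APOM are shown because APOH stood lowest and APOM near the top at 100 μM. They are the 80 bases before the start of transcription in RefSeq on GRCh38.p14, in the direction of the gene, and capitals mark the letters GTTAAT, part of the HNF1 motif, in APOH and GGGTCA, a variant of the nuclear receptor site AGGTCA, in APOM.
APOH (chr17:66229416-66229495, minus strand): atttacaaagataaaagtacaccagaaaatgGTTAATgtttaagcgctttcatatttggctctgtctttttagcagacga
APOM (chr6:31655814-31655893, plus strand): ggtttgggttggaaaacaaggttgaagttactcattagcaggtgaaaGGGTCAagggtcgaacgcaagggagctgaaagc
A promoter of 300 bases was matched for 7 of the 10 members, and 4 motifs of 6 letters were searched on both strands. APOA1, APOB and APOC3 had no promoter entry and were not searched. GTTAAT was found in APOH, at 49 and 210 bases before the start, and in 6.88% of all 35116 promoters of that length. GGGTCA was found in APOM (33 bases before the start), APOC1 and APOA4 and in 14.1% of all promoters. AGGTCA was found in APOC2 and in 13.8% of all, and TATAAA in APOC2, 30 bases before the start, and in 11.5% of all. A match of 6 letters is a description of the sequence and not a binding site.

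Another list held 16 apolipoprotein and related genes, among them APOLD1 and the enzyme gene PON1. APOD, APOF and APOL5 were not well above background on any array, and 13 were compared. At 100 μM over control, 3 of the 13 were more than 2-fold higher, against 6.76% of all genes, and 0 were lower, against 3.66%. The median log2 ratio of the 12 measured on both arrays, without LPA, was 0.55, against 0.09. APOL2, a cytoplasmic apolipoprotein L, had a signal of 2081 in control cells, 3161 at 10 μM and 4851 at 100 μM and rose 2.77-fold at 100 μM. APOL4 had a signal of 51.0, 88.1 and 146 and rose 3.40-fold, which ran down to 2.09-fold over 8 settings, while its other probe was not above background on any array. APOC4, which lies between APOC1 and APOC2 on chromosome 19, had a signal of 101, 125 and 201 and rose 2.37-fold, a call made in 5 of 8 settings. These 3 ratios lay above the highest of the 10 members, which was 1.72-fold. APOA5, a neighbour of APOA4 that promotes triglyceride clearance, had a signal of 293, 186 and 194 and was 0.609-fold of control at 10 μM and 0.788-fold at 100 μM. APOO was 0.954-fold at 100 μM, and APOL6 was 1.07-fold after scaling and lower than control without it. Neither of the 2 other APOL6 probes lay above control at 100 μM after scaling. None of these 13 genes passed 2-fold at 10 μM. Between the doses, 100 μM over 10 μM, 11 of the 12 measured lay higher, against 59.6% of all genes, with a median of 0.54. APOO lay lower, and without scaling APOOL and CLU did too.

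Among 20 genes of lipoprotein assembly and remodelling, 16 were above background. At 100 μM, 3 of the 16 were more than 2-fold higher, against 6.76% of all genes, 0 were lower, against 3.66%, and the median log2 ratio was 0.35, against 0.09. PLTP, the phospholipid transfer protein that remodels high density lipoprotein, had a signal of 1974 in control cells, 6232 at 10 μM and 4867 at 100 μM. It rose at both doses, 3.03-fold and 2.93-fold, in all 8 settings. MTTP, the transfer protein that loads lipid onto apolipoprotein B, had a signal of 1522, 957 and 1216 and was 0.602-fold of control at 10 μM and 0.950-fold at 100 μM, while APOB itself was 1.19-fold and 1.44-fold. A1CF, a factor of APOB messenger RNA editing, was 0.664-fold and 0.941-fold, and the editing enzyme gene APOBEC1 was not above background. LIPC, hepatic lipase, was 0.629-fold and 0.764-fold. PLA2G7, a lipoprotein-associated phospholipase, rose from a very dim 22.9 to 98.4 at 10 μM (4.12-fold, in 7 of 8 settings) and 47.4 at 100 μM (2.46-fold, in 6 of 8), and TM6SF2 was 2.09-fold of control at 100 μM, past 2-fold in 3 of 8 settings.

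Among 19 receptor and uptake genes, of which 17 were above background, 2 were more than 2-fold lower at 100 μM, against 3.66% of all genes, 0 were higher, against 6.76%, and the median log2 ratio was −0.07, against 0.09. VLDLR, the very low density lipoprotein receptor that binds apolipoprotein E, had a signal of 345 in control cells, 209 at 10 μM and 116 at 100 μM and fell to 0.399-fold at 100 μM, in 7 of 8 settings. Its other probe was not above background on any array. The APOE signal was highest at 100 μM, where the VLDLR signal was lowest, and a link between them was not tested. The apolipoprotein E receptor gene LRP8 was 0.510-fold of control at 100 μM, past 2-fold in 4 of 8. CD36, LRP1 and LRPAP1 were 1.46-fold, 1.32-fold and 1.29-fold. SDC1, a heparan sulfate proteoglycan that takes up remnants, rose 2.21-fold at 10 μM and was 1.22-fold at 100 μM, which median scaling took to just below control.

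All 26 liver regulators of apolipoprotein genes were above background. At 10 μM, 6 of 26 lay above control, against 45.6% of all genes, with a median log2 ratio of −0.27, against −0.03. At 100 μM, 14 did, against 57.4%, with a median of 0.07, against 0.09. Past 2-fold, 1 was lower at 10 μM, against 1.6% of all genes, and 2 were higher at 100 μM, against 6.76%, shares near the background. Between the doses, 100 μM over 10 μM, 4 of 26 were more than 2-fold higher, against 3.95% of all genes. In that comparison 22 lay higher, against 59.6%, with a median of 0.41, against 0.10. The 4 were CREB3L3 (in 8 of 8 settings), NR1H4 (in 4 of 8), HNF4A and ONECUT1 (in 3 of 8 each). NR1H4, the bile acid receptor FXR, which represses APOA1 and APOC3 and activates APOC2, had a signal of 1217 in control cells, 548 at 10 μM and 946 at 100 μM, and fell to 0.432-fold at 10 μM in all 8 settings. CREB3L3, a liver transcription factor that activates several apolipoprotein genes, had 258, 223 and 485 and rose 2.23-fold at 100 μM, in 4 of 8 settings. ONECUT1 rose 2.66-fold at 100 μM from a dim 34.6 in control cells, in 7 of 8. PPARA, the fatty acid receptor targeted by fibrates, was 1.76-fold of control at 100 μM, and FOXO1, CEBPB and NR5A2 were 0.589-fold, 0.616-fold and 0.737-fold, where another probe of NR5A2 had the opposite sign. HNF4A, a main activator of apolipoprotein genes in liver, was read by 1 dim probe at 50.7, 30.4 and 53.7. That probe is annotated to 1 transcript of the gene, and whether it reads the other HNF4A transcripts was not tested. The ratio of this probe was 0.574-fold at 10 μM (log2 ratio −0.80, spot SD 0.30), which ran up to 0.826-fold over 8 settings. At 100 μM it was 1.26-fold (log2 ratio 0.33, spot SD 0.20), within 2 spot SD of control.

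The labelled cell type was checked by markers, and all 8 hepatocyte markers were well above background on every array. Their summed signal, before scaling like the other marker sums here, was 360571 in control cells, 381597 at 10 μM and 379046 at 100 μM. AHSG made up the largest part of it (179192, 186028 and 196973). The median log2 ratio of the 8 markers for 100 μM over control was 0.22. For 100 μM over 10 μM all 8 lay higher, as all 10 members did, against 59.6% of all genes, with a median of 0.30. Without scaling, ALB, AFP, TF and ASGR1 lay below 10 μM. TTR, transthyretin, rose 2.16-fold (past 2-fold in 5 of 8 settings), SERPINA1 was 1.79-fold and FGB 1.38-fold, whereas ALB, albumin, was 0.698-fold, ASGR1 0.937-fold and AFP 0.946-fold. The apolipoprotein genes thus lay between SERPINA1 and AFP. Of markers of other cell types, the collagen genes COL1A1, COL1A2 and COL3A1, CD163 and KDR were not above background. The summed signal of 4 leukocyte and macrophage markers ran from 955 in control cells to 1559 and 2549, mostly from CD14 (521, 1184 and 1847), and CD14 and CD68 rose at 100 μM by 4.22-fold and 2.81-fold. PTPRC, the leukocyte marker CD45, went the other way at 10 μM, from 257 to 131, and fell to 0.489-fold there, in 5 of 8 settings, with 288 at 100 μM. These values are from 1 of 5 PTPRC probes, and the others were not above background on any array. The sum of 4 endothelial markers ran from 535 to 369 and 360, mostly from PECAM1 (473, 298 and 286), while VWF was above background only at 100 μM. That of 4 stellate cell markers ran from 110 to 84.0 and 39.0, nearly all from PDGFRB (95.6, 67.0 and 22.5), which was not well above background at 100 μM and at most 0.280-fold of control there, past 2-fold in 7 of 8 settings. That of 4 cholangiocyte markers was 15442, 17332 and 15452. All groups were the same line, so the signals of these markers are given as signals of that line. Their relation to the apolipoprotein ratios was not tested.

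**Figure D4:**
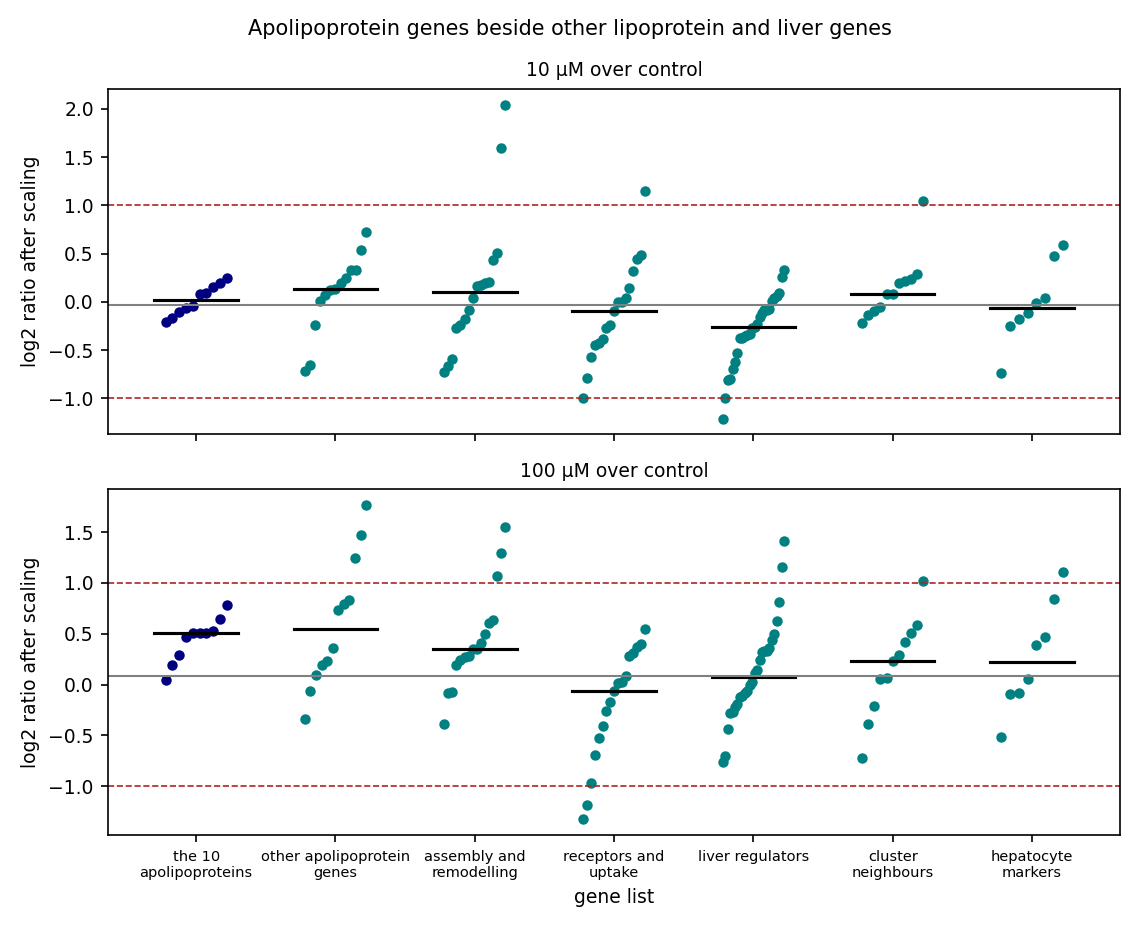
Log2 ratio over control after scaling at 10 μM (top) and 100 μM (bottom) etoposide for each measured gene of 7 lists, with bars at list medians, a gray line at the median of all genes and dashed lines at 2-fold. The 10 apolipoproteins stay within the dashed lines in both panels, with medians of 0.02 and 0.50, while other lists hold single genes beyond them; the shift of all lists relative to 0 depends on the scaling, and APOA4 and APOH lie below 0 at 100 μM without scaling.

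The genes whose pair of log2 ratios over control was nearest to the members' median pair, over 3 arrays and 12037 genes well above background with a RefSeq mRNA accession, were GAL3ST1 (NM_004861, distance 0.0075), LOC390595 (NM_001163692, 0.010) and FAM73A (NM_198549, 0.011). GAL3ST1, a sulfotransferase gene, had a signal of 361 in control cells, 383 at 10 μM and 432 at 100 μM. Of the 12037 genes, 221 lay within 0.1 of the same pair. Of the members themselves, APOE, APOA2 and APOA1 lay nearest to it, at 0.074, 0.076 and 0.078, and APOH farthest, at 0.51.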

How the data were processed

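Total RNA of HepG2 cells was labeled with Cy3 and hybridized to 1-color arrays, 1 per condition. The authors deposited the scanner output of Agilent Feature Extraction (version 10.7.3.1), whose intensity per spot is background-subtracted and not scaled between arrays, and a series table equal to it for all 44495 spots of each array. Log2 of the deposited intensity was averaged over the spots of a probe without outlier spots and centered on the array’s own 75th percentile, counting each probe 1 time. A gene stood by its brightest probe. A probe below the software's background limit was given the higher of its own signal and the floor of its array, the dimmest signal still called above background (19.5, 22.7 and 21.6 by rising dose), and its ratio is then a bound. The number of arrays limits the precision. Spot noise is the SD between spots of the 50 repeated probes nearest in signal, or of the probe's own spots where it had 10. It was divided by the square root of the number of spots averaged and combined over both arrays of a ratio.

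The members and lists were chosen with earlier results of these data known. Named are all members, the 3 highest and 3 lowest genes of each list at 100 μM over control, list genes past 2-fold where a list has 5 or fewer, and the 3 genes nearest to the members' median. APOBEC1 was named after its values were seen. Not every gene this rule picks is reported here. Sequences came from the array files and RefSeq (GRCh38.p14). The steps were tested on simulated data. Alternatives were 6 scalings, normexp background correction (offset 50), other spot, probe and filter rules, the series table, and thresholds of 1.5-fold and 3-fold. Python 3.11.15, pandas 2.3.3, numpy 2.4.6, matplotlib 3.10.9, R 4.3.3 and limma 3.58.1 were used.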

Additional observations from a re-analysis of the deposited data

How the results depend on the processing

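With 1 array per condition, leaving out an array leaves no comparison. No paired analysis was possible because there were no replicates to pair. The count of members past 2-fold stayed at 0 in all 3 comparisons under every scaling, background, spot, probe and filter setting and at 3-fold, and at 1.5-fold it was 2 for 100 μM over control and 1 for 100 μM over 10 μM. The members' median log2 ratio of 100 μM over control (0.50) was 0.25 without scaling, 0.22 with median scaling, 0.56 with the percentile over all spots, 0.33 with spike-in scaling and 0.41 with normexp. That of 100 μM over 10 μM (0.39) was 0.080, 0.12, 0.46, 0.17 and 0.33 in the same order, and 0.33 with quantile normalization. That of 10 μM over control (0.02) was 0.077 without scaling and 0.078 with quantile normalization. The other settings moved these medians by less than the spot noise. Of 420 values of single members under the alternatives, 310 moved by less than their spot SD, 110 by more, 11 took the opposite sign, and the largest in size was 0.90. Signal over background limits APOA4 most, whose spot SD was 0.09.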
